A study of Homo sapiens with 12 samples.

Results

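Interferon-stimulated genes are the genes that cells switch on when interferons, the secreted antiviral proteins, bind their receptors. The cells were MM.1S, a glucocorticoid-sensitive line established from human multiple myeloma. The list held 59 genes, taken by symbol through the platform annotation, and 42 of them had a named row among the 14884 genes of the array. Each of the 42 had 1 row. This list and the other gene lists below were chosen with earlier results of these data known. Their counts and correlations set beside those of all genes are therefore descriptions. The other 17 (IFI6, IFI27, IFI16, MX1, OAS1, OAS2, OAS3, STAT2, PARP9, PARP14, CMPK2, GBP1, GBP2, LY6E, LGALS3BP, ADAR and TNFSF10) were not analysed here, and RIGI is the current symbol of the member listed as DDX58. Cells were exposed for 24 h in 4 groups of 3 arrays. FPD cells were given 1 nM filanesib, which blocks the mitotic kinesin KIF11, together with 500 nM pomalidomide and 10 nM dexamethasone. PD cells received 500 nM pomalidomide, which redirects the cereblon ubiquitin ligase to the lymphoid transcription factors IKZF1 and IKZF3, with 10 nM dexamethasone, a glucocorticoid. F cells received 1 nM filanesib and 10 nM dexamethasone according to their source and treatment labels, whereas their titles and the shared protocol give the letter F alone. Control cells received vehicle. None of the 12 arrays held pomalidomide without dexamethasone, so the parts of these 2 agents cannot be told apart in the comparisons of PD and FPD with Control. Below, arrays with pomalidomide means those of PD and FPD, which all had dexamethasone as well. If F was filanesib alone, the same split also separates arrays with and without dexamethasone.

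Type I interferons signal through the receptor kinases JAK1 and TYK2. The signal ends in a transcription factor complex that contains IRF9 and binds the interferon-stimulated response element, or ISRE, in the promoters of its target genes. The products block viral entry, degrade or sense foreign nucleic acid, attach the ubiquitin-like protein ISG15 to other proteins, and feed back on the pathway. Many of the genes are also read at a basal level by IRF family members without added interferon.

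All values were log2 expression values from RMA, the authors' array normalization, with array medians between 4.23 and 4.27, and the correlation between arrays of a group lay between 0.988 and 0.992. The number of arrays limits the precision. Whether the 3 arrays of each group stand for independent cultures is not given by the labels, so the spread behind the p-values may be technical. The plasma cell marker SDC1 averaged 10.21 in FPD, 10.16 in PD, 10.16 in F and 10.19 in Control. Of the plasma cell list 7 genes were measured, with a mean of 9.34 in FPD, 9.36 in PD, 9.65 in F and 9.65 in Control, and 2 of them (IRF4 and SLAMF7) were lower in PD. The means of the monocyte markers CD14, CD163, LYZ, S100A8 and VCAN lay below the array medians in every group. Those of S100A9 (6.31 in FPD, 6.36 in PD, 6.27 in F and 6.3 in Control) and CSF1R (4.48, 4.33, 4.41 and 4.64) lay above them. MPO was below them in FPD (4.22) and above in PD, F and Control. None of the 8 measured monocyte markers passed the test in PD, FPD or F against Control. NCAM1, 1 of 3 measured natural killer cell markers, was higher in FPD (log2 change 0.66) and in PD (0.56) than in Control. PECAM1, 1 of 6 stromal or epithelial markers, was higher in PD than in Control (log2 change 0.41), and CD28, 1 of 5 T cell markers, was lower in FPD than in Control (-0.28). Their part in the results that follow was not tested.

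Promoters of 6 members are printed because they set the best-known ISRE-bearing genes of the list beside the genes that moved. The sequences are from the + strand of RefSeq GRCh38.p14, 5′ to 3′, and end at the base before the annotated gene start. Capitals mark every match to an ISRE core, GAAA and GAAA with any 2 bases between them, on either strand, so that TTTC, any 2 bases and TTTC is the same motif read from the other strand.
ISG20, chr15:88638926-88639015: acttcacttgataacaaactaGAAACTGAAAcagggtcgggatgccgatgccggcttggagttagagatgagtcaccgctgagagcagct
IFIT3, chr10:89327827-89327996: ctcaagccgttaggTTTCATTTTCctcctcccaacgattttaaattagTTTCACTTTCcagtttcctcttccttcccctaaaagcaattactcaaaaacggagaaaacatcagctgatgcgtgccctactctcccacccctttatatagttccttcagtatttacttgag
RTP4, chr3:187368325-187368384: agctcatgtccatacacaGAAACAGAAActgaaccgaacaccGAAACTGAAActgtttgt
HERC5, chr4:88456979-88457118: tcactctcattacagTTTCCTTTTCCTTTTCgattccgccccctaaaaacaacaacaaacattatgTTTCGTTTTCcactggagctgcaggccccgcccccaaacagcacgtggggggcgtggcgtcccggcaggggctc
IFIT1, chr10:89392493-89392622: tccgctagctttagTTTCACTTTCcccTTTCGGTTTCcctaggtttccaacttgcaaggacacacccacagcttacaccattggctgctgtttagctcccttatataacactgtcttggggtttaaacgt
ISG15, chr1:1013367-1013496: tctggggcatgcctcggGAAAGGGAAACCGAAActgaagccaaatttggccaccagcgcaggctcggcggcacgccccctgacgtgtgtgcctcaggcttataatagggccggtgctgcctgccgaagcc
The first 3 belong to genes that were higher in PD cells, HERC5 to a gene that was lower, and IFIT1 and ISG15 to members that were not called in any comparison. A match describes the letters of the window and is no evidence that a factor bound there.

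A subset of the interferon-stimulated genes was higher after pomalidomide with dexamethasone, and the widely used marker ISG15 was not among them. Of the 42 measured members 17 were higher in PD than in Control, 3 were lower and 22 did not pass the test (limma, Benjamini-Hochberg adjusted p under 0.05 over all 14884 genes). Over all genes 6.84% were called higher and 8.63% lower. Because the list was chosen with earlier results of these data known, the difference from these shares is a description and was not tested. The largest changes were those of the exonuclease gene ISG20, IFIT3, the ubiquitin ligase gene DTX3L and HERC6, each called at more than 2-fold. The median log2 change over the 42 members was 0.21, against -0.0027 over all genes, and 34 members were positive and 8 negative. The arrays of PD and Control did not overlap for 23 members above and 3 below, where 13.2% and 15.8% of all genes did not overlap in these directions. The genes were measured in bulk RNA, so a change in the number of expressing cells and a change in RNA per cell cannot be told apart.

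**Figure D1:**
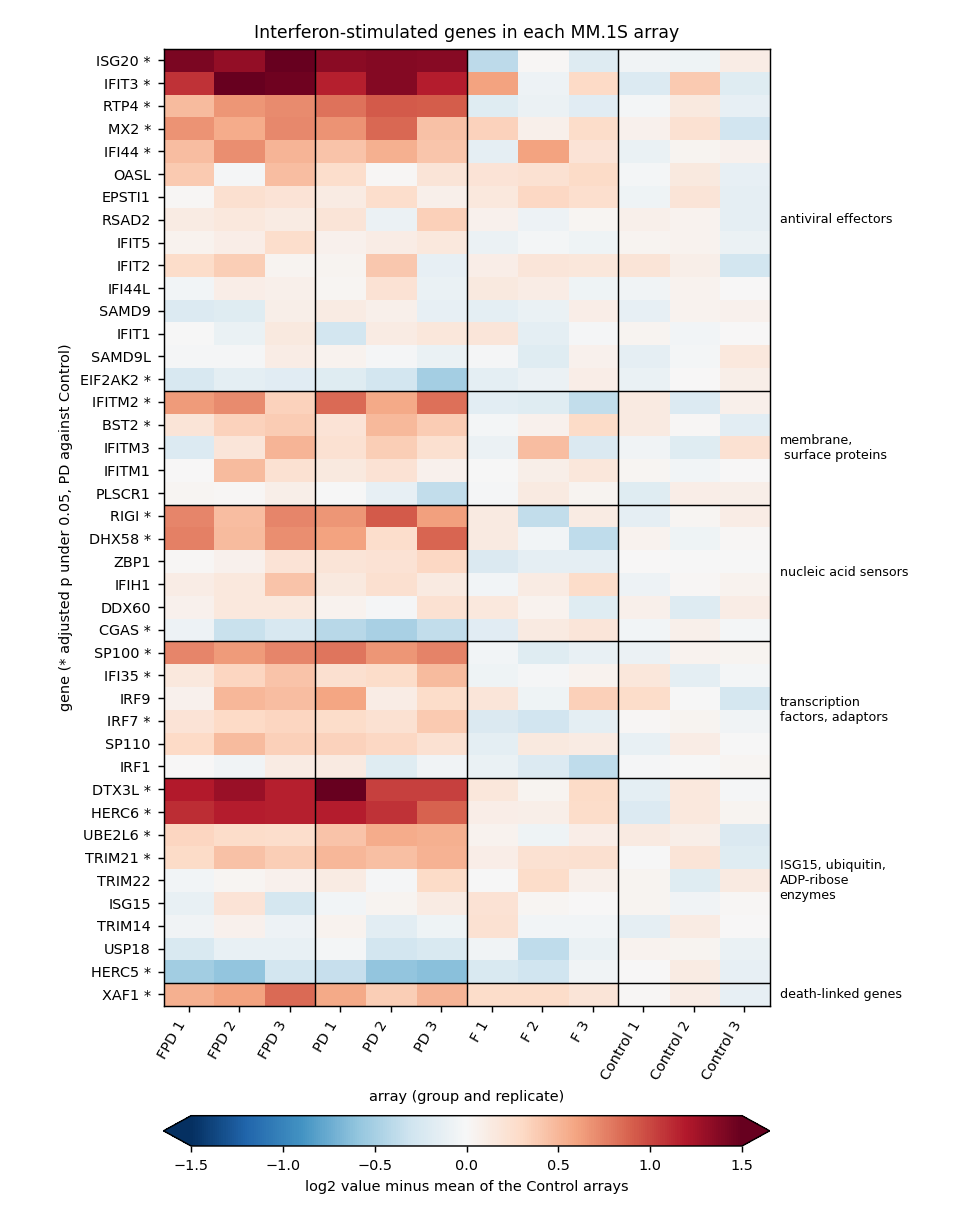
Heat map of the 42 measured interferon-stimulated genes (rows, grouped by role) in the 12 arrays (columns, FPD, PD, F and Control). Colour is the log2 value minus the gene's Control mean, with the colour scale ending at 1.5 in both directions, and asterisks mark the 20 members called in PD against Control. The FPD and PD columns carry the strongest colours in ISG20, IFIT3, DTX3L and HERC6, and the F columns are paler in these genes. In IFI44 an F array is coloured as strongly as those of PD.

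Among the antiviral effectors, 5 of 15 members were higher in PD than in Control and 1 was lower. ISG20, a nuclease that degrades single-stranded RNA and whose promoter above holds 1 ISRE core, had log2 values of 7.37, 7.28 and 7.51 in FPD, 7.31, 7.33 and 7.33 in PD, 5.56, 5.98 and 5.77 in F and 5.9, 5.9 and 6.07 in Control. All 6 arrays with pomalidomide stood above all 6 arrays without it, a 2.58-fold difference for PD against Control by limma (log2 change 1.37, 95% interval 1.14 to 1.6, adjusted p = 5.68e-07, Benjamini-Hochberg). IFIT3, a tetratricopeptide protein that steadies the binding of IFIT1 to viral RNA, had values of 4.9, 5.44 and 5.27 in FPD, 4.98, 5.19 and 5.0 in PD, 4.41, 3.74 and 4.11 in F and 3.61, 4.2 and 3.64 in Control. The groups with pomalidomide again did not overlap those without it, although some F and Control arrays lay below the array medians, where RMA compresses differences (2.36-fold in PD against Control, log2 change 1.24, 95% interval 0.86 to 1.62, adjusted p = 0.000174). RTP4, an interferon-induced chaperone of cell-surface receptors with 2 ISRE cores above, had values of 7.59, 7.77 and 7.82 in FPD, 7.92, 8.03 and 8.02 in PD, 6.92, 7.01 and 6.94 in F and 7.08, 7.26 and 6.99 in Control. Each PD array was also higher than each FPD array for this gene, and the PD to Control difference was 1.84-fold (log2 change 0.88, 95% interval 0.68 to 1.08, adjusted p = 1.26e-05).

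MX2, a dynamin-like GTPase that restricts retroviruses, had log2 values of 5.16, 5.04 and 5.21 in FPD, 5.17, 5.34 and 4.93 in PD, 4.83, 4.56 and 4.76 in F and 4.55, 4.71 and 4.2 in Control. The arrays with pomalidomide all stood above those without it, by a small margin between the lowest PD and the highest F array (1.58-fold in PD against Control, log2 change 0.66, 95% interval 0.38 to 0.94, adjusted p = 0.00256). IFI44, a cytoplasmic protein known mainly as an interferon response marker, had values of 4.36, 4.59 and 4.4 in FPD, 4.32, 4.43 and 4.31 in PD, 3.76, 4.49 and 4.1 in F and 3.79, 3.93 and 3.96 in Control. PD and FPD were above Control in every array, while 1 F array reached into their range. Its PD to Control change was 1.38-fold (log2 change 0.46, 95% interval 0.16 to 0.76, adjusted p = 0.0348), and the call was lost when any 1 of the PD or Control arrays was left out (adjusted p up to 0.112). EIF2AK2, the double-stranded RNA-activated kinase PKR, moved the other way, with values of 8.81, 8.9 and 8.88 in FPD, 8.87, 8.77 and 8.54 in PD, 8.89, 8.96 and 9.15 in F and 8.95, 9.05 and 9.14 in Control. PD arrays lay below every F and Control array, a 1.25-fold lower level than in Control (log2 change -0.32, 95% interval -0.54 to -0.1, adjusted p = 0.0475). That call was lost on leaving out any 1 of 9 arrays, which were all 3 Control, all 3 FPD, F replicate 2 and PD replicates 2 and 3 (adjusted p up to 0.201).

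Of the 9 members that handle ISG15, ubiquitin or ADP-ribose, 4 were higher in PD than in Control and 1 was lower. DTX3L, the ubiquitin ligase that works with PARP9, had log2 values of 7.82, 7.92 and 7.79 in FPD, 8.2, 7.65 and 7.65 in PD, 6.79, 6.67 and 6.91 in F and 6.49, 6.78 and 6.61 in Control. Every array with pomalidomide stood above every array without it, although PD replicate 1 was higher than the other PD arrays (2.3-fold in PD against Control, log2 change 1.2, 95% interval 0.92 to 1.49, adjusted p = 1.53e-05). HERC6, a HECT-type ligase that in mouse conjugates ISG15, had values of 6.98, 7.06 and 7.04 in FPD, 7.05, 6.96 and 6.76 in PD, 5.97, 5.96 and 6.15 in F and 5.67, 6.04 and 5.92 in Control, again without overlap (2.07-fold, log2 change 1.05, 95% interval 0.82 to 1.28, adjusted p = 7.6e-06). HERC5, the main ISG15 ligase of human cells and the direct neighbour of HERC6 on chromosome 4 with no coding gene between them, had values of 7.54, 7.47 and 7.78 in FPD, 7.71, 7.47 and 7.44 in PD, 7.84, 7.76 and 8.01 in F and 8.07, 8.19 and 7.94 in Control. PD and FPD were below every Control array, so that the 2 neighbours changed in opposite directions (1.44-fold lower in PD, log2 change -0.52, 95% interval -0.76 to -0.28, adjusted p = 0.00422). The promoter of HERC5 printed above holds 3 ISRE cores, and the HERC6 window that was searched held none.

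UBE2L6, the conjugating enzyme for ISG15, had values of 7.13, 7.08 and 7.07 in FPD, 7.23, 7.36 and 7.34 in PD, 6.87, 6.75 and 6.9 in F and 6.94, 6.89 and 6.59 in Control. TRIM21, a cytosolic antibody receptor and ubiquitin ligase, had values of 7.52, 7.67 and 7.6 in FPD, 7.73, 7.68 and 7.75 in PD, 7.33, 7.46 and 7.47 in F and 7.23, 7.42 and 7.05 in Control. For both genes the 6 arrays with pomalidomide stood above the 6 without it, and the PD to Control differences were 1.42-fold for UBE2L6 (log2 change 0.5, 95% interval 0.29 to 0.72, adjusted p = 0.00229) and 1.4-fold for TRIM21 (log2 change 0.49, 95% interval 0.28 to 0.7, adjusted p = 0.00269). ISG15 itself, the ubiquitin-like protein these enzymes attach, had values of 6.14, 6.45 and 5.99 in FPD, 6.21, 6.29 and 6.37 in PD, 6.47, 6.29 and 6.26 in F and 6.29, 6.2 and 6.27 in Control. Its 4 groups overlapped, and the interval for PD against Control ran from -0.2 to 0.27 on the log2 scale (log2 change 0.04, adjusted p = 0.894). USP18, the protease that removes ISG15, had a log2 change of -0.18 in PD against Control (95% interval -0.41 to 0.04, adjusted p = 0.303).

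**Figure D2:**
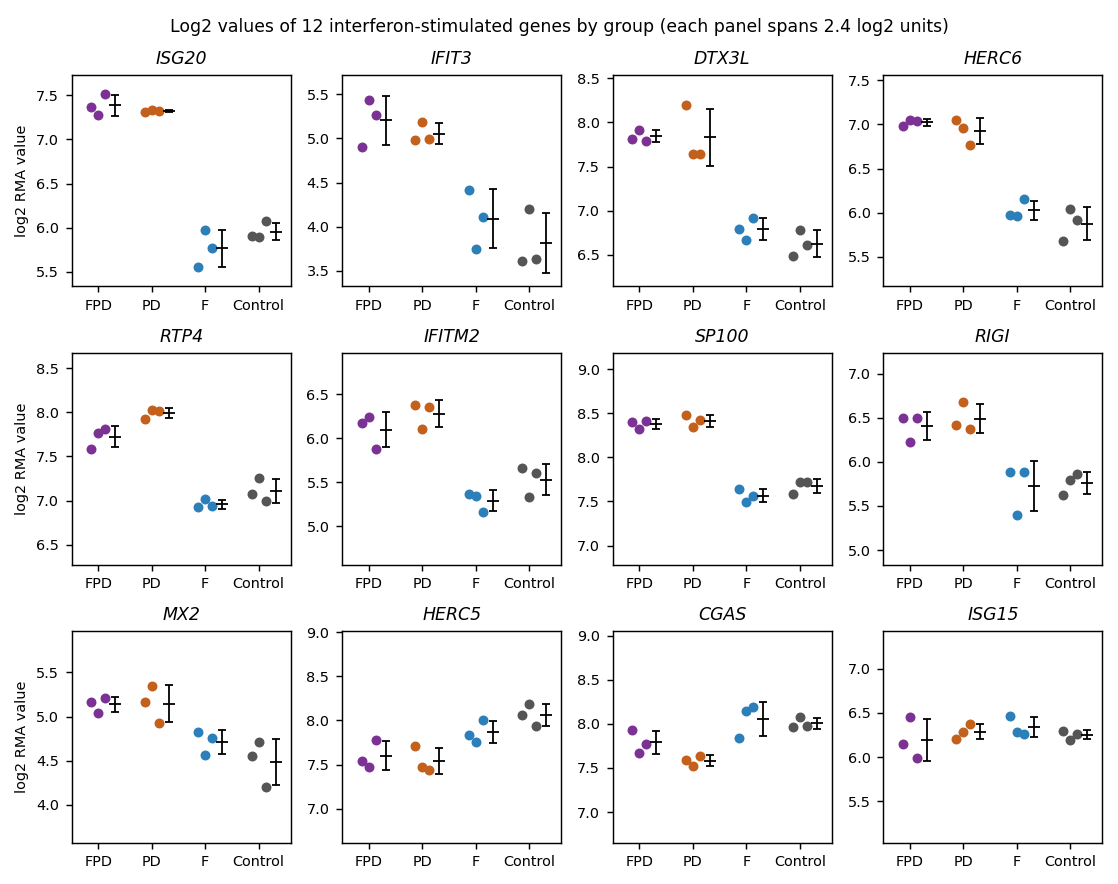
Log2 expression of 12 interferon-stimulated genes in FPD, PD, F and Control. Each dot is 1 array, and the bar with its whiskers is the mean ± SD of 3 arrays, with panels that span the same number of log2 units. The FPD and PD dots stand apart from the F and Control dots in ISG20, IFIT3, DTX3L, HERC6, RTP4, IFITM2, SP100, RIGI and MX2. HERC5 and CGAS are lower in PD than in Control, and the ISG15 dots of the 4 groups overlap.

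Of the 5 members at membranes and the cell surface, 2 were higher in PD than in Control. IFITM2, which blocks the fusion of viruses with endosomes, had log2 values of 6.17, 6.24 and 5.88 in FPD, 6.38, 6.1 and 6.35 in PD, 5.37, 5.35 and 5.16 in F and 5.66, 5.33 and 5.6 in Control. The arrays with pomalidomide all stood above those without it (1.68-fold in PD against Control, log2 change 0.74, 95% interval 0.49 to 1.0, adjusted p = 0.000501). Its neighbours on chromosome 11, IFITM1 and IFITM3, are close in sequence and did not pass the test, with log2 changes of 0.14 and 0.28, and whether their probes are free of cross-hybridisation was not tested. BST2, or tetherin, which holds budding virus at the cell surface, had values of 9.44, 9.61 and 9.63 in FPD, 9.46, 9.74 and 9.64 in PD, 9.23, 9.31 and 9.54 in F and 9.39, 9.27 and 9.1 in Control. PD and FPD stood above every Control array and overlapped F (1.28-fold in PD against Control, log2 change 0.36, 95% interval 0.12 to 0.6, adjusted p = 0.0388). That call was lost without Control replicate 2 or 3 or PD replicate 2 or 3 (adjusted p up to 0.161).

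Among 6 transcription factors and adaptors, 3 were higher in PD than in Control. SP100, a component of nuclear bodies that restrict viral DNA, had log2 values of 8.4, 8.32 and 8.41 in FPD, 8.48, 8.34 and 8.42 in PD, 7.64, 7.49 and 7.56 in F and 7.59, 7.72 and 7.72 in Control. The SD within groups was small and the arrays with and without pomalidomide were far apart (1.67-fold in PD against Control, log2 change 0.74, 95% interval 0.55 to 0.92, adjusted p = 2.62e-05). IRF7, which drives the transcription of type I interferon genes, had values of 5.76, 5.86 and 5.89 in FPD, 5.84, 5.79 and 5.96 in PD, 5.35, 5.27 and 5.42 in F and 5.58, 5.61 and 5.51 in Control. The F arrays were the lowest for this gene, and PD was above Control by 1.23-fold (log2 change 0.3, 95% interval 0.12 to 0.49, adjusted p = 0.0264). IFI35, a leucine zipper protein of the interferon response, had values of 8.18, 8.35 and 8.45 in FPD, 8.27, 8.3 and 8.49 in PD, 7.96, 8.0 and 8.08 in F and 8.19, 7.88 and 8.0 in Control, and the PD arrays stood above Control while 1 FPD array did not (1.26-fold in PD against Control, log2 change 0.33, 95% interval 0.11 to 0.56, adjusted p = 0.0447). The IRF7 call was lost without Control replicate 1 or 3 or PD replicate 1 or 3 (adjusted p up to 0.102), and that of IFI35 on leaving out any 1 of 9 arrays, all but Control replicate 1 and FPD replicates 1 and 3 (adjusted p up to 0.183).

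SP110, a nuclear body protein related to SP100, had log2 values of 7.18, 7.36 and 7.24 in FPD, 7.23, 7.2 and 7.11 in PD, 6.74, 7.03 and 7.01 in F and 6.77, 7.0 and 6.88 in Control. The arrays with pomalidomide stood above those without it, but the PD to Control difference did not pass the test (log2 change 0.29, 95% interval 0.08 to 0.51, adjusted p = 0.0632). IRF9, a DNA-binding subunit of the complex that reads the ISRE, averaged 6.61 ± 0.25 in PD and 6.28 ± 0.27 in Control (SD, n = 3 each), a difference within their spread (adjusted p = 0.211, limma). IRF1, an early activator of interferon genes, changed by -0.03 on the log2 scale (adjusted p = 0.891).

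Among the 6 nucleic acid sensors, 2 were higher in PD than in Control and 1 was lower. RIGI, the cytosolic sensor of viral RNA ends, had log2 values of 6.5, 6.22 and 6.5 in FPD, 6.42, 6.68 and 6.37 in PD, 5.89, 5.39 and 5.89 in F and 5.62, 5.79 and 5.87 in Control. DHX58, or LGP2, a regulator of RIGI and of the related sensor IFIH1, had values of 5.5, 5.22 and 5.44 in FPD, 5.35, 5.01 and 5.62 in PD, 4.89, 4.7 and 4.37 in F and 4.8, 4.68 and 4.76 in Control. In both RNA helicases the arrays with pomalidomide stood above those without it, by 1.66-fold for RIGI in PD against Control (log2 change 0.73, 95% interval 0.44 to 1.02, adjusted p = 0.00144) and 1.5-fold for DHX58 (log2 change 0.58, 95% interval 0.27 to 0.9, adjusted p = 0.0121), although the DHX58 call was lost without PD replicate 3 (adjusted p = 0.0668). CGAS, the cytosolic DNA sensor that makes the second messenger for STING1, had values of 7.93, 7.67 and 7.77 in FPD, 7.59, 7.52 and 7.64 in PD, 7.84, 8.15 and 8.19 in F and 7.96, 8.08 and 7.98 in Control. PD was below every Control and F array, 1.34-fold lower than Control (log2 change -0.42, 95% interval -0.65 to -0.2, adjusted p = 0.0107). ZBP1, a sensor of Z-form nucleic acid, had values of 8.0, 8.04 and 8.19 in FPD, 8.16, 8.2 and 8.29 in PD, 7.76, 7.85 and 7.84 in F and 7.99, 7.97 and 7.98 in Control, and its PD arrays were above Control without passing the test (log2 change 0.24, 95% interval 0.06 to 0.42, adjusted p = 0.0729). IFIH1 changed by 0.17 (adjusted p = 0.337).

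XAF1, which promotes apoptosis by opposing the inhibitor XIAP, was the 1 measured member grouped under cell death. Each member was given 1 role, so members of other groups may also act in cell death. Its log2 values were 5.58, 5.64 and 5.9 in FPD, 5.61, 5.42 and 5.56 in PD, 5.32, 5.32 and 5.24 in F and 5.07, 5.15 and 4.92 in Control. Arrays with pomalidomide stood above those without it, and FPD replicate 3 was the highest (1.4-fold in PD against Control, log2 change 0.48, 95% interval 0.27 to 0.7, adjusted p = 0.00367).

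The members that were called in no comparison numbered 20, and their log2 changes in PD against Control ran from -0.18 (USP18) to 0.33 (IRF9). Of the 42 members 5 lay below the array medians in all 12 arrays, namely IFIT1, IFIT2, IFI44L, DDX60 and TRIM22, and all 5 are among these 20. IFIT1, a sensor of viral RNA caps and a standard readout of interferon signalling, averaged 2.63 ± 0.24 in PD and 2.62 ± 0.04 in Control (SD, n = 3 each). Its promoter printed above carries 2 ISRE cores, like those of IFIT3 and RTP4, which were higher. RSAD2 and OASL, both strongly interferon-induced antiviral genes, had log2 changes of 0.15 and 0.16 (adjusted p = 0.417 and 0.464, limma).

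The ISRE core was found in the promoters of 21 of the 32 measured members with a RefSeq entry (65.6%), against 996 of 27305 promoters (3.648%). The window ran from 250 bases before to 50 after the gene start, and both strands were searched. It was present in 7 of the 13 members called higher in PD with an entry (53.8%), in both of the called-lower members with one (HERC5 and EIF2AK2), and in 12 of the 17 that were not called (70.6%). These shares within the list are a description, and no test was run on them. An ETS-IRF composite element of the kind bound by IRF4 (GGAA, any 2 bases, GAAA) was found in 8 of the 32 (25.0%), against 2.842% of all promoters, and in HERC5 and DTX3L 1 such match each overlapped an ISRE match. A STAT element (TTC, any 3 bases, GAA) was found in 8 of the 32 (25.0%), against 7.881%. TGGGAA, an Ikaros core, was found in 6 (18.8%), against 24.3%, and a palindromic glucocorticoid element (AGAACA, any 3 bases, TGTTCT) in 0, against 0.004%. That exact palindrome occurred in 1 of the 27305 promoters, so its count of 0 cannot show that glucocorticoid elements were absent. The entries of IFIT2, IFITM2, MX2, OASL, USP18, IRF7, DHX58, TRIM22, CGAS and ZBP1 were not used here.

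The triple combination also went with higher levels of part of the list. Against Control, 15 of the 42 members were higher in FPD and 1 (HERC5) was lower, where 7.26% and 5.89% of all genes were called in these directions, and the median log2 change was 0.23 for the members and -0.016 for all genes. The arrays did not overlap for 21 members above and 4 below, against 14.4% and 15.5% of all genes. This comparison shares its Control arrays with that of PD. ISG20 was 2.69-fold higher in FPD than in Control (log2 change 1.43, 95% interval 1.2 to 1.66, adjusted p = 3.58e-07), IFIT3 2.62-fold (log2 change 1.39, 95% interval 1.01 to 1.77, adjusted p = 7.04e-05), DTX3L 2.32-fold (log2 change 1.21, 95% interval 0.93 to 1.5, adjusted p = 1.71e-05) and HERC6 2.22-fold (log2 change 1.15, 95% interval 0.92 to 1.38, adjusted p = 3.36e-06). HERC5 was 1.38-fold lower (log2 change -0.47, 95% interval -0.71 to -0.23, adjusted p = 0.0108), and leaving out Control replicate 2 or FPD replicate 2 ended that call (adjusted p up to 0.0573). SP110 passed the test in this comparison (log2 change 0.37, 95% interval 0.16 to 0.59, adjusted p = 0.021), but not without Control replicate 1 or 3 or FPD replicate 2 or 3 (adjusted p up to 0.0958). TRIM21 (log2 change 0.37, 95% interval 0.15 to 0.58, adjusted p = 0.022) lost its call without the same 4 arrays (adjusted p up to 0.103).

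Smaller log2 changes called in FPD against Control were 0.7 for SP100, 0.66 for XAF1, 0.65 for MX2, 0.64 for RIGI, 0.64 for DHX58, 0.62 for RTP4, 0.57 for IFITM2, 0.56 for IFI44 and 0.28 for IRF7. The IFI44 call was lost without Control replicate 1 or FPD replicate 2 (adjusted p up to 0.0658), and the IRF7 call without any 1 array other than PD replicate 3 (adjusted p up to 0.151). BST2, IFI35, UBE2L6, CGAS and EIF2AK2, which were called in PD, did not pass in FPD, with log2 changes of 0.31, 0.3, 0.29, -0.22 and -0.19 (adjusted p = 0.0896, 0.0744, 0.0748, 0.222 and 0.308, limma). None of these 5 was called in FPD against PD by the same test.

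FPD and F differ in pomalidomide if the F treatment label holds, and in pomalidomide and dexamethasone if F was filanesib alone. The comparison of FPD with F shares no array with that of PD with Control. Of the 42 members 13 were higher in FPD than in F and 0 were lower, where 7.5% and 6.64% of all genes were called in these directions. The arrays did not overlap for 20 members above and 0 below, against 15.1% and 15.2% of all genes. The members called in both comparisons numbered 12, all of them higher, which is 60% of the 20 called in PD against Control and 92.3% of the 13 called in FPD against F. Over all genes 1428 were called with the same sign in both, 62.0% of the PD calls and 67.8% of the FPD calls. Both comparisons came from 1 model with a common estimate of the spread, and with each fitted on its own arrays 16 and 12 members were called, 11 of them in both. Across the 42 members the log2 changes of the comparisons correlated with r = 0.94 (Spearman rho 0.89), against r = 0.78 across all genes, with a median absolute difference of 0.12 between them, where genes of 1 array are not independent replicates.

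ISG20 was 3.07-fold higher in FPD than in F (log2 change 1.62, 95% interval 1.39 to 1.85, adjusted p = 1e-07), IFIT3 2.16-fold (log2 change 1.11, 95% interval 0.73 to 1.5, adjusted p = 0.00049) and DTX3L 2.07-fold (log2 change 1.05, 95% interval 0.76 to 1.33, adjusted p = 6.08e-05). HERC6, SP100, IFITM2, RTP4, DHX58, RIGI and IRF7 were also higher, with log2 changes of 1.0, 0.81, 0.8, 0.77, 0.74, 0.68 and 0.49. The calls of MX2 (log2 change 0.42, 95% interval 0.14 to 0.7, adjusted p = 0.0447), XAF1 (log2 change 0.42, 95% interval 0.2 to 0.63, adjusted p = 0.0115) and SP110 (log2 change 0.33, 95% interval 0.12 to 0.55, adjusted p = 0.0372) changed with single arrays. MX2 lost its call without any 1 of 7 arrays, Control replicate 1, F replicate 2 or 3, PD replicate 1 or any FPD array (adjusted p up to 0.184). SP110 lost it without F replicate 1 or any FPD array (adjusted p up to 0.153), and XAF1 without FPD replicate 3 (adjusted p = 0.0706). HERC5 and CGAS were not called in FPD against F, with log2 changes of -0.27 and -0.27 (adjusted p = 0.14 and 0.116, limma). PD against F, which has its F arrays in common with the last comparison, gave 15 members higher and 1 lower (CGAS, log2 change -0.47, 95% interval -0.7 to -0.25, adjusted p = 0.00458), where 7.43% and 9.91% of all genes were called. The TRIM21 call in this comparison was lost without any 1 array other than Control replicates 2 and 3 (adjusted p up to 0.138). The IFI35 call was lost without any F array or PD replicate 2 or 3 (adjusted p up to 0.149), and the MX2 call without F replicate 2 or 3 or PD replicate 1 or 2 (adjusted p up to 0.153). ZBP1 passed the test there (log2 change 0.4, 95% interval 0.22 to 0.58, adjusted p = 0.0035).

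**Figure D3:**
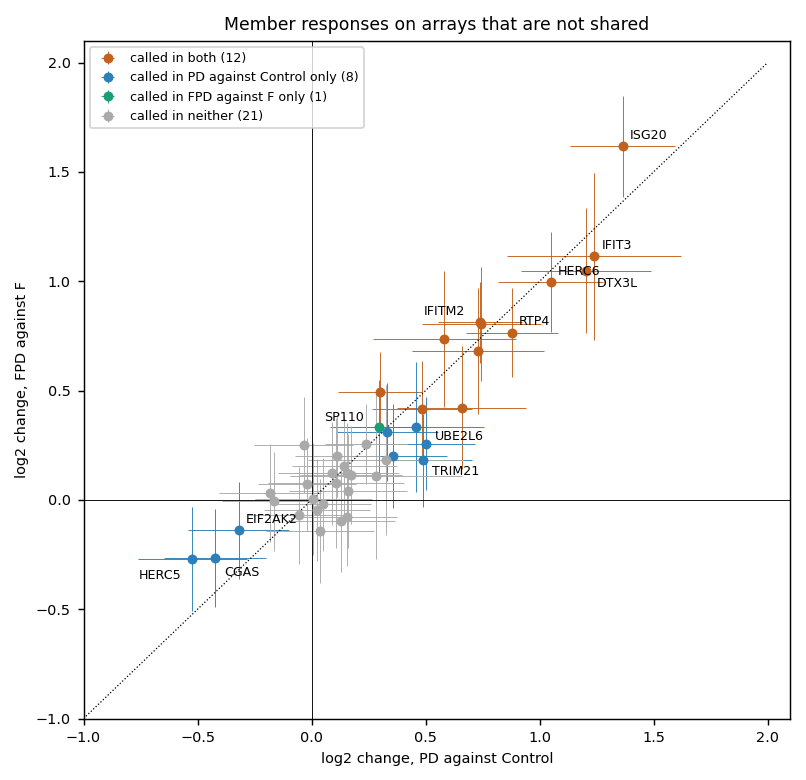
Log2 change of each of the 42 members in PD against Control (x axis) and in FPD against F (y axis), 2 comparisons with no array in common. Lines are 95% intervals from limma and colours give the calls, with 12 members called in both, 8 in PD against Control, 1 in FPD against F and 21 in neither. ISG20, IFIT3, DTX3L and HERC6 lie farthest up and to the right, and HERC5 and CGAS lie below 0 on both axes.

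No member passed the test in F against Control or when filanesib was added to pomalidomide and dexamethasone. In F against Control 0 of the 42 members were called, where 0.00672% of all genes were (1 gene), and 4 of the 42 members had an unadjusted p under 0.05, as did 895 of the 14884 genes. The log2 changes of the 42 members ran from -0.24 to 0.27, the smallest adjusted p was 0.737 by limma, and the 95% intervals of the 42 members reached a median of 0.229 to either side of the estimate, with outer bounds of -0.499 and 0.657. The arrays of F and Control did not overlap for 2 members above and 3 below, against 4.84% and 5.15% of all genes. In FPD against PD again 0 were called, where 0.0336% of all genes were (5 genes), and 2 of the 42 members had an unadjusted p under 0.05, as did 1283 of the 14884 genes. The changes ran from -0.26 to 0.21, with a smallest adjusted p of 0.442 and outer bounds of -0.499 and 0.532. The arrays did not overlap for 2 members with FPD above PD and 3 with FPD below, against 8.1% and 6.35% of all genes. ISG20 differed between FPD and PD by 0.06 (95% interval -0.17 to 0.29), IFIT3 by 0.15 (-0.23 to 0.53) and DTX3L by 0.01 (-0.28 to 0.29). RTP4 was lower in all FPD arrays than in all PD arrays (log2 change -0.26, 95% interval -0.47 to -0.06, adjusted p = 0.442), as was UBE2L6 (log2 change -0.22, 95% interval -0.43 to -0.0042, adjusted p = 0.564), and neither passed the test.

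The departure from additivity, the difference of FPD and PD minus that of F and Control, was also called for 0 members and for 0% of all genes, with an unadjusted p under 0.05 for 1 member and for 833 genes. Its estimates ran from -0.31 to 0.29, and its intervals were wider, reaching a median of 0.324 to either side. The comparisons of F depend on what the F cells received. The glucocorticoid-induced gene DDIT4, which was 4.46 higher on the log2 scale in PD than in Control, had log2 values of 5.92, 5.89 and 6.09 in F and 5.9, 6.06 and 6.02 in Control (F against Control log2 change -0.03, 95% interval -0.21 to 0.16, adjusted p = 0.978, limma). FKBP5, another glucocorticoid target, had 6.09, 5.56 and 5.58 in F and 5.54, 5.6 and 5.56 in Control (F against Control log2 change 0.18, 95% interval -0.08 to 0.44, adjusted p = 0.902), and 0 of the 7 measured genes of the glucocorticoid list were called in F. In PD 5 of the 7 were higher than in Control (DDIT4, FKBP5, KLF9, PER1 and ZBTB16), although ZBTB16 lost its call without Control or PD replicate 3 (adjusted p up to 0.087). SGK1, also on this list, went the other way in PD without passing the test (log2 change -0.29). In FPD against Control 4 of the 7 were higher and SGK1 was lower (log2 change -0.395). That SGK1 call was lost without Control replicate 2 or FPD replicate 2 or 3 (adjusted p up to 0.0976, limma).

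**Figure D4:**
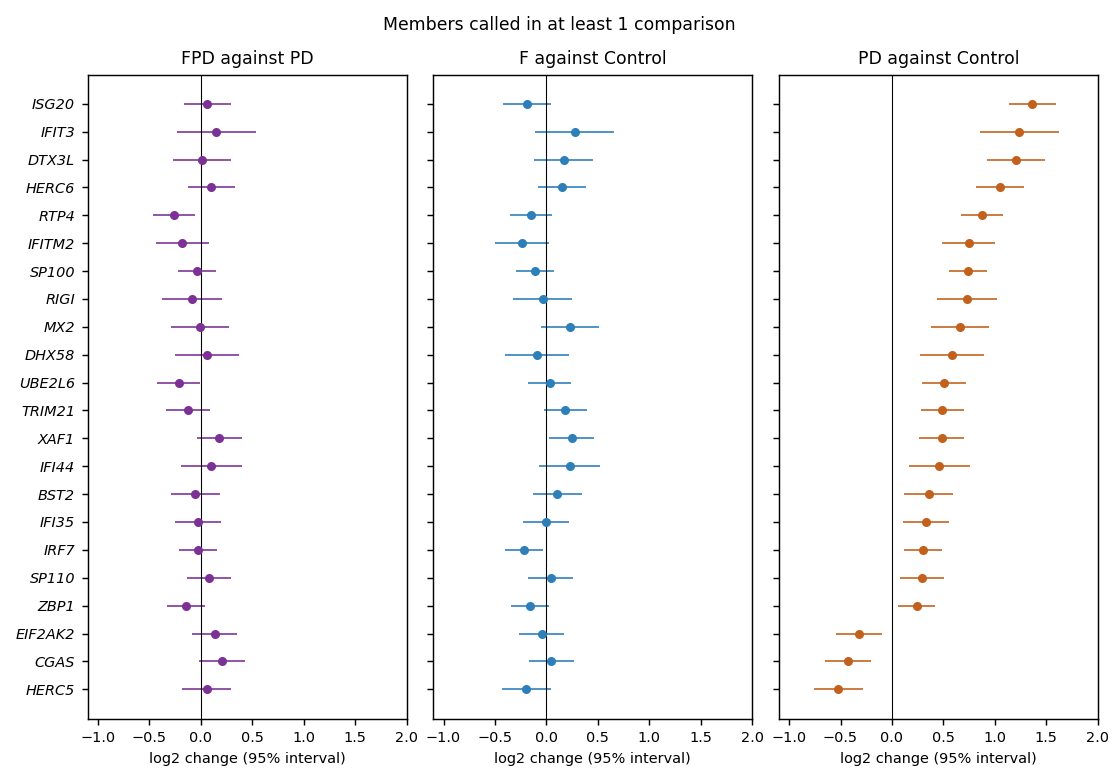
Log2 change with its 95% interval from limma for the 22 members called in at least 1 comparison, in 3 panels for FPD against PD, F against Control and PD against Control. The points of FPD against PD lie within -0.26 and 0.21 and those of F against Control within -0.24 and 0.27. Most intervals in these 2 panels cross 0. In the third panel the points spread from HERC5 at -0.52 to ISG20 at 1.37.

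Genes of the pathway above and around the members were read from further lists. That of ISG15 conjugation shares genes with the members. The list of receptors and JAK-STAT genes held 17 genes, 8 of them measured. In PD against Control 3 were higher and 0 lower, where 6.84% and 8.63% of all genes were called. IFNGR1, a chain of the interferon-gamma receptor, was 1.57-fold higher in PD (log2 change 0.65, 95% interval 0.39 to 0.9, adjusted p = 0.00137), the receptor kinase JAK2 1.74-fold (log2 change 0.8, 95% interval 0.51 to 1.09, adjusted p = 0.00071) and STAT3, which acts below interleukin receptors, 1.8-fold (log2 change 0.85, 95% interval 0.65 to 1.05, adjusted p = 1.46e-05). The same 3 genes were called in FPD against Control, with log2 changes of 0.93, 0.98 and 0.87. The 21 interferon ligands of the list had no named row and were not analysed here.

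Of the 6 genes of ISG15 conjugation 2 were higher in PD than in Control and 1 was lower, where 6.84% and 8.63% of all genes were called. UBE2L6, HERC5, USP18 and ISG15 among them are members, so their results are those already given above. UBA7, the enzyme that activates ISG15, had log2 values of 6.88, 6.75 and 7.28 in FPD, 7.41, 6.82 and 7.17 in PD, 6.51, 5.96 and 5.79 in F and 6.15, 6.47 and 5.97 in Control. The arrays with pomalidomide stood above those without it (1.91-fold in PD against Control, log2 change 0.93, 95% interval 0.52 to 1.35, adjusted p = 0.00304), and in FPD against Control the call (log2 change 0.77, 95% interval 0.36 to 1.18, adjusted p = 0.0135) was lost without Control replicate 3 or FPD replicate 3 (adjusted p up to 0.0788). UBA7 and UBE2L6, the first 2 enzymes, were thus higher in PD, the ligase HERC5 was lower, and ISG15 and USP18 did not pass the test. TRIM25, the ligase that acts on RIGI, had log2 changes of -0.22 in PD against Control (adjusted p = 0.109) and -0.32 in FPD against Control (adjusted p = 0.0186, limma). The FPD call of TRIM25 was lost without Control replicate 1 or 2 or FPD replicate 2 (adjusted p up to 0.082).

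Among 14 measured sensing adaptors and kinases 1 was higher and 2 were lower in PD than in Control, counts near those that 6.84% and 8.63% of all genes would give, and the median log2 change of the list was -0.0004. STING1, the adaptor that the product of CGAS activates, had log2 values of 5.4, 5.85 and 5.89 in FPD, 5.65, 5.27 and 5.28 in PD, 4.81, 4.39 and 4.62 in F and 4.57, 4.65 and 4.58 in Control. It stood higher in all arrays with pomalidomide (1.74-fold in PD against Control, log2 change 0.8, 95% interval 0.5 to 1.1, adjusted p = 0.000946), while CGAS was lower in PD. TLR7, the endosomal receptor for single-stranded RNA, was 1.65-fold lower in PD (log2 change -0.72, 95% interval -1.08 to -0.36, adjusted p = 0.00718). TRAF3, a signalling adaptor, was 1.23-fold lower (log2 change -0.3, 95% interval -0.48 to -0.12, adjusted p = 0.0222), a call lost without Control or PD replicate 2 or 3 (adjusted p up to 0.0777). MAVS, the mitochondrial adaptor of RIGI, was called in FPD against Control (log2 change 0.49, 95% interval 0.23 to 0.74, adjusted p = 0.0112) and not in PD (log2 change 0.35, 95% interval 0.1 to 0.6, adjusted p = 0.0568), and lost the FPD call without Control replicate 1 or 2 or FPD replicate 3 (adjusted p up to 0.0517).

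The list of regulatory factors, which also holds CRBN, had 10 measured genes. Of these 4 were higher and 1 was lower in PD than in Control, where 6.84% and 8.63% of all genes were called. IRF4, the factor on which myeloma cells depend, had log2 values of 10.06, 10.13 and 10.08 in FPD, 10.28, 10.07 and 10.29 in PD, 11.23, 11.17 and 11.21 in F and 11.39, 11.5 and 11.44 in Control, and PD was 2.35-fold below Control (log2 change -1.23, 95% interval -1.42 to -1.05, adjusted p = 2.2e-07). CRBN, the receptor of pomalidomide, changed by 0.33 (adjusted p = 0.0255), IKZF1 by 0.33 (adjusted p = 0.0273), IRF3, the factor that sensors activate, by 0.28 (adjusted p = 0.0483) and IRF5 by 0.41 (adjusted p = 0.0389), all by limma. Each of these 4 calls depended on single arrays. That of CRBN was lost without Control replicate 2 or 3 or PD replicate 1 or 3 (adjusted p up to 0.0865), and that of IKZF1 without Control replicate 1 or 2 or PD replicate 1 (up to 0.122). The IRF3 call was lost without any 1 array other than F replicates 1 and 3 (adjusted p up to 0.171), and the IRF5 call without Control replicate 2 or 3, or replicate 1 or 3 of PD or FPD (up to 0.176). IKZF3 did not pass the test (log2 change 0.42, 95% interval -0.01 to 0.84, adjusted p = 0.196). These are transcript levels, and pomalidomide acts on the IKZF1 and IKZF3 proteins, which were not measured here. IRF8 was called in FPD against Control (log2 change 0.34, 95% interval 0.12 to 0.57, adjusted p = 0.0442), but not without Control replicate 1 or 3, F replicate 2, PD replicate 3 or any FPD array (adjusted p up to 0.178).

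The list of interferon-gamma type targets had 13 measured genes, among them B2M, ICAM1 and CD38, and was not limited to genes specific to interferon-gamma. In PD against Control 2 were higher, 1 was lower and 10 did not pass the test. Over all genes 6.84% and 8.63% were called higher and lower. The median log2 change of the list was 0.0092. GBP4, a guanylate-binding protein, had log2 values of 6.05, 5.91 and 6.41 in FPD, 6.21, 5.94 and 6.33 in PD, 4.28, 5.03 and 4.58 in F and 4.57, 4.92 and 4.57 in Control. The arrays with pomalidomide stood above those without it (2.78-fold in PD against Control, log2 change 1.48, 95% interval 1.11 to 1.85, adjusted p = 2.65e-05). ERAP2, which trims peptides for antigen presentation, changed by 1.03 (adjusted p = 1.52e-06, limma). CXCL10, the chemokine that attracts activated T cells, had values of 5.33, 4.91 and 5.54 in FPD, 5.23, 5.07 and 4.64 in PD, 7.22, 8.15 and 7.8 in F and 7.39, 7.84 and 7.04 in Control. It was 5.43-fold lower in PD than in Control (log2 change -2.44, 95% interval -2.94 to -1.94, adjusted p = 3.66e-06), a change larger than that of any measured member, and opposite in sign to those of ISG20 and IFIT3.

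**Figure D5:**
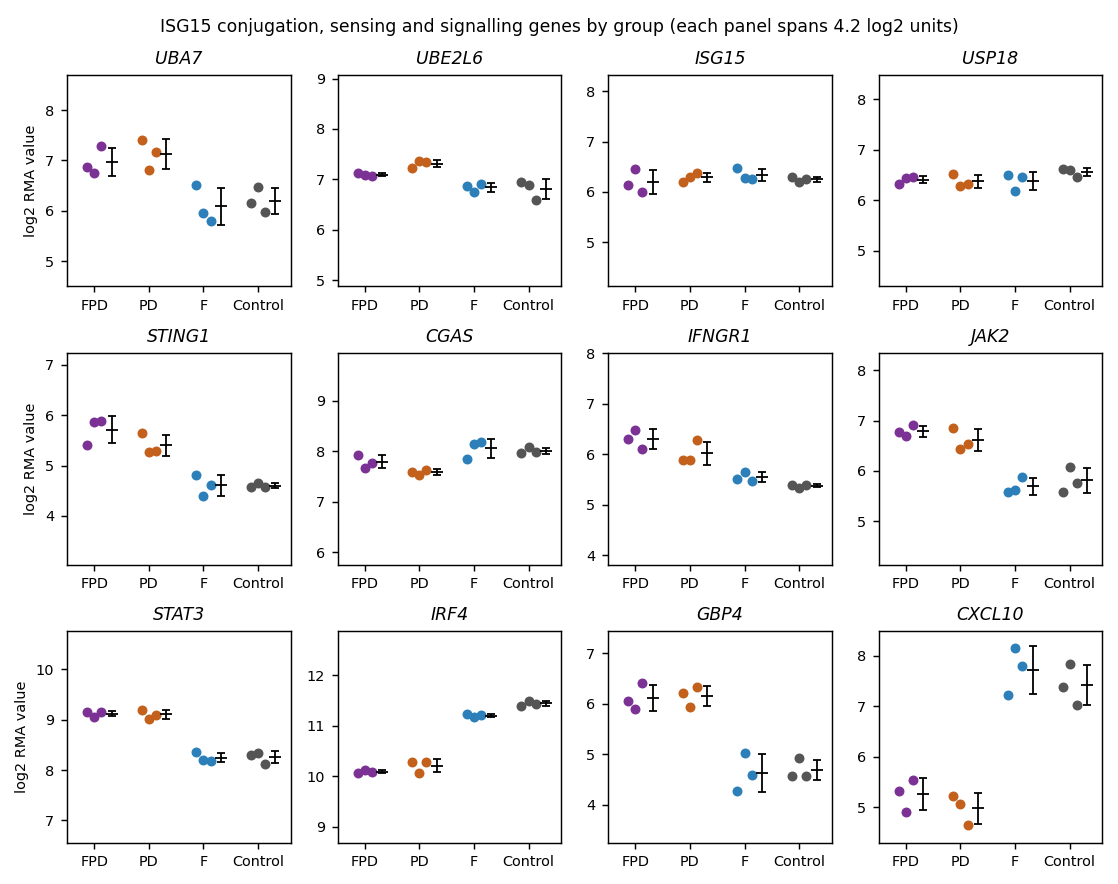
Log2 expression of 12 genes of the ISG15 pathway, of sensing and signalling, and of interferon-gamma type targets in FPD, PD, F and Control. Dots are arrays, and bars with whiskers are means ± SD of 3 arrays. UBA7, UBE2L6, STING1, IFNGR1, JAK2, STAT3 and GBP4 have all FPD and PD dots above those of F and Control, IRF4 and CXCL10 have them below, and the dots of ISG15 overlap between groups.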

How the data were processed

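RNA of 12 MM.1S samples was isolated with a miRNeasy kit, biotin-labelled and hybridised to Affymetrix arrays, per the labels' protocols. Per the submitters' processing notes, the deposited log2 values came from RMA run in Affymetrix Expression Console. This method makes array distributions alike and compresses low signals, so a change in total RNA would not show and fold changes of weak genes are understated. Versions and genome build are not given in the sources used here. Values ran from 1.61 to 13.75.

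Of 53617 rows 16098 had 1 gene symbol, 0 had several and 37519 had none. For the 779 genes with more than 1 row, that with the highest mean was used, leaving 14884 genes, tested without a filter on low values. Group means were modelled over the 12 arrays together (limma 3.58.1, R 4.3.3), two-sided, with Benjamini-Hochberg adjustment over all genes and a call at an adjusted p under 0.05. It was tested on simulated data. Members called in at least 1 comparison were named with every array. Pathway genes were named if called in PD or FPD against Control, with a few fixed by name. Members and lists were chosen with earlier results of these data known. The lists covered receptors and JAK-STAT genes, sensing adaptors, regulatory factors, interferon-gamma targets, glucocorticoid targets, ISG15 conjugation, interferon ligands and markers of other cell types. Among the marker lists, 5 T cell genes (0 called in PD, 1 lower in FPD) and 1 plasmacytoid dendritic cell gene (not called) were measured. Promoters came from RefSeq GRCh38.p14, and build coordinates were used for them alone. The alternatives were other normalizations, filters, row choices and fits, a replicate block and leaving out each array.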

Additional observations from a re-analysis of the deposited data

How the results depend on the processing

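The number of members called stayed within 1.5 times its value under every alternative run, and no called value changed sign. Leaving out 1 array at a time gave 14 to 20 members in PD against Control, 12 to 16 in FPD against Control, 10 to 13 in FPD against F, 13 to 16 in PD against F, and 0 in F against Control, FPD against PD and the departure from additivity. With the replicate number as a replicate block the counts were 19, 15, 13 and 15 in the first 4 comparisons and 0 in the other three. Deviations from the group means correlated by -0.256 to 0.158 between same-numbered arrays (18 pairs) and by -0.203 to 0.234 between others (36 pairs). The correlation was over 0.1 in 5 of the 18 and in 5 of the 36. With 3 arrays per group these values cannot decide whether the numbers pair the samples, and the labels do not say. Adjusting over all 53617 rows gave 15 members in PD against Control, 12 in FPD against Control and 11 in FPD against F, and fitting the compared arrays alone gave 16, 14 and 12. In PD against Control 14 of the 20 called members were called under every alternative, in FPD against Control 11 of 16, in FPD against F 10 of 13 and in PD against F 13 of 16. The members that were lost in PD against Control were BST2, DHX58, EIF2AK2, IFI35, IFI44 and IRF7. SP110 and ZBP1 were gained there when arrays were quantile normalized again. Over all genes the count in FPD against PD was 5, against 0 with the replicate block, 31 with an intensity trend and robust fitting, 20 among genes above the median mean and 94 over all rows of the table. In F against Control 1 gene was called, against 32 over all rows, and in PD against F 2581 genes, against 4142 over all rows. No other scaling moved the median of all genes by over 0.1. For members whose values lie under the array medians, signal and background are hard to separate.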

Other observations

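The 4 members below failed the correction and had an unadjusted limma p under 0.05 in F against Control, a cut that 895 of the 14884 genes also met. EPSTI1 and XAF1 had log2 changes of 0.24 and 0.25, and IRF7 and IRF1 of -0.22 and -0.23 (unadjusted p = 0.0374, 0.0287, 0.024 and 0.0416). TRIM21 was the 1 member with an unadjusted p under 0.05 for the departure from additivity (-0.31, unadjusted p = 0.0433, limma).

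Members that lie side by side on a chromosome were not always called together. On chromosome 10 IFIT2, IFIT3, IFIT1 and IFIT5 follow each other with at most 1 coding gene between them, and of these IFIT3 was called in PD against Control. IFIT1 and IFIT2 lay below the array medians in all 12 arrays, where RMA compresses differences, so their missing calls cannot show a different response. IFIT5 lay above the medians in all 12 arrays and was not called, with means of 6.7 in PD and 6.58 in Control. On chromosome 7 the neighbours SAMD9 and SAMD9L, which restrict poxviruses, were not called in any comparison. On chromosome 2 SP110 and SP100, with 2 coding genes between them, had log2 changes of 0.29 and 0.74 in PD against Control. Neighbours were taken from the RefSeq order of GRCh38.p14, and no test was run on this pattern.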
